A study of Mus musculus with 3 samples.

Results

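Slc2a3 and Slc38a2 are the genes of a pair of nutrient transporters of the plasma membrane, and both held AGO2 peaks in P19 cells. Their peaks were selected by position from 4 deposited peak lists, as every row with its midpoint inside the span of either gene on either strand. This gave 45 of the 6911 peaks of the series, 30 in Slc2a3 and 15 in Slc38a2. Both genes had been chosen from the same peak lists because each held a site of all 4 lists, so the peak counts below describe them and test nothing.

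The series holds 3 libraries of AGO2 HITS-CLIP from P19, a mouse embryonal carcinoma stem cell line, made with the AGO2 antibody clone 2D4. HITS-CLIP fixes proteins to the RNA they touch, pulls 1 protein down with an antibody and sequences the RNA fragments that come with it. All 3 libraries form 1 group, with no control antibody, treatment or other genotype compared. The 4 lists, made with the programs PIPE-CLIP, Pyicoclip, Piranha and CIMS, separate no library, so no spread between libraries and no depth could be given. The lists come from the same reads and are not replicates of one another.

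AGO2 is the Argonaute protein that carries a microRNA and is guided by it to messenger RNAs, most often through pairing of the microRNA seed with the 3′ untranslated region. Bound messages are repressed or degraded. Slc2a3 encodes GLUT3, a high-affinity facilitative glucose transporter known from neurons and from the early embryo. Slc38a2 encodes SNAT2, a sodium-coupled carrier of small neutral amino acids such as alanine and glutamine, which cells make in larger amounts when amino acids run short.

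MicroRNAs under AGO2 peaks were read from the same lists, because their seeds are what a target site would pair with. The microRNAs shown are a selection of the mature arms, among 7 embryonic and neural families listed for the seed search, that lay under peaks of at least 2 lists on their own strand. Other arms that did so are not shown. Of these, miR-293-3p, miR-302a-5p and miR-92b-5p have other seeds. Unshown arms with a seed printed below include let-7e-5p, which has that of let-7c. Another is miR-92b-3p, with the seed of miR-92a and scores of 19 in Piranha and in Pyicoclip. Sequences are from RefSeq (GRCm38.p6), 5′ to 3′, and capitals mark the seed, bases 2 to 8.
mmu-miR-302b-3p: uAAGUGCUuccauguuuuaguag
mmu-miR-302d-3p: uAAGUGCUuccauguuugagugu
mmu-miR-93-5p: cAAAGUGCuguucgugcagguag
mmu-miR-301a-3p: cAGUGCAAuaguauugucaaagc
mmu-miR-92a-3p: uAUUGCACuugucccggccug
mmu-miR-25-3p: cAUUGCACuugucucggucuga
mmu-let-7c-5p: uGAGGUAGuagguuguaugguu

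The miR-302 arms share 1 seed, and miR-92a and miR-25 share another. The seed of miR-93 holds most of the miR-302 seed, moved by 1 base. Peaks over miR-92a were found at both of its genes, with Piranha scores of 19 and 16, and the mature sequence is the same at both, so the gene of origin is uncertain. Both peaks over miR-25 scored 15. Those over the printed arms of let-7c, miR-301a, miR-302b, miR-302d and miR-93 scored 10 to 13, at or near the lowest listed score of 10. No mature arm of the neural families miR-9 and miR-124 lay under a peak, but these families hold only 6 and 3 arms, counted at each gene. In the other families the share with a peak ran from 3 of 25 arms in let-7 to 5 of 10 in miR-92. The neural families are thus too small to read as lacking AGO2 peaks. Whether any of the printed seeds has a match under the transporter peaks was not tested, since the sequence of the peaks was not used here.

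Slc2a3 spans 74555 nt of chromosome 6, from 122727809 to 122802363 in mm10, and is known to be transcribed from the minus strand. Its 3′ end is therefore the low-coordinate end, and distances below count from that end. All 30 of its peaks were on the minus strand (the lower 95% Wilson bound of the share is 88.6%, for counting error only). Slc38a2 spans 12337 nt of chromosome 15, from 96687392 to 96699728, and RefSeq places its start on the minus strand at the high end. All 15 of its peaks were on that strand (lower bound 79.6%). Peaks of several lists share sites and are not independent, so both bounds are tighter than the data allow and only describe the counts. Minus-strand peaks made up 87.0% of the whole PIPE-CLIP list, so its clusters alone say little about strand. The lists of Pyicoclip and Piranha were near balance, with 48.5% and 50.2% on the minus strand, and CIMS had 39.1%. In Slc2a3 the 15 peaks of those 3 lists were all on the minus strand, as were the 5 in Slc38a2.

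Slc2a3 had 15 PIPE-CLIP clusters, 10 Pyicoclip peaks, 4 Piranha peaks and 1 CIMS peak. Of all 21900 annotated protein-coding genes, 0.279% had a peak in CIMS, 2.89% in Piranha, 4.54% in Pyicoclip and 7.12% in PIPE-CLIP. A peak in all 4 lists was found for 23 genes, 0.105% of them, and both transporters are among these by choice. No protein-coding gene had more Pyicoclip peaks than Slc2a3, and 1 had more PIPE-CLIP clusters, with 16. More Piranha peaks were found in 6 genes, and more CIMS peaks in 9. The median gene with a peak had 1 in each list. Slc38a2 had 1 CIMS, 2 Piranha, 2 Pyicoclip and 10 PIPE-CLIP peaks, and 11 genes had more PIPE-CLIP clusters. More Pyicoclip peaks were found in 55 genes, more Piranha peaks in 16 and more CIMS peaks in 9. Longer genes offer more room for peaks, and these ranks are not corrected for length or for RNA level, which was not measured. Per kb of span, Slc2a3 held 0.402 peaks and Slc38a2 held 1.22. The Slc2a3 value counts 59862 nt of span beyond its last peak, against 1012 nt in Slc38a2. These densities therefore do not rank the pair.

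Runs of overlapping peaks, merged over the lists with strand ignored, are called loci. The 30 Slc2a3 peaks covered 2370 nt, or 3.18% of a span whose 59862 nt farthest from the 3′ end held no peak. They formed 12 loci. Of these, 1 held all 4 lists, 3 held 3 lists, 5 held 2 lists and 3 held PIPE-CLIP alone. The 15 Slc38a2 peaks formed 10 loci that covered 927 nt, or 7.51% of the span. Here 1 locus held all 4 lists, 1 held 3 lists and 8 held PIPE-CLIP alone, with none of 2 lists. The glucose transporter thus had most of its loci in several lists, and the amino acid transporter had most of its loci in 1.

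The densest stretch of Slc2a3 lay between 484 and 2244 nt from the 3′ end. The second kb from that end was covered for 96.2% of its length, against 40.7% of the first kb, 22.6% of the third and 18.7% of the fourth. Loci 3, 4, 5 and 6, counted from the 3′ end, were separated by only 14, 24 and 19 nt. Peaks were thus listed there almost without a break, and the callers divided the stretch at different points.

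The locus nearest to the 3′ end, at 122727821 to 122727884, began 12 nt inside the span. It held the highest Piranha score of the gene, 16, with a Pyicoclip peak of 16 and a PIPE-CLIP cluster of 18. The second locus, at 122728293 to 122728601, had 1 Pyicoclip peak of 26 and PIPE-CLIP clusters of 42 and 48, which lay side by side within it. No Piranha peak fell there, although both PIPE-CLIP scores were above that of the first locus.

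The locus of all 4 lists in Slc2a3 ran from 122728775 to 122729249, 966 to 1440 nt from the 3′ end. A single Pyicoclip peak of 475 nt with a score of 28, the highest of the gene in that list, spanned the whole of it. PIPE-CLIP split it into a cluster of 220 nt that scored 47 and one of 186 nt that scored 75, 4 nt apart. The 20-nt Piranha peak, which scored 11, lay in the first of these, and the CIMS peak, which scored 26, lay in the second. A gap of 218 nt separated the Piranha peak from the CIMS peak, so no base of this locus was in all 4 lists.

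The fourth locus, at 122729264 to 122729711, repeated that arrangement without CIMS. Its Pyicoclip peak of 448 nt scored 19, its PIPE-CLIP clusters scored 39 and 59, and its Piranha peak scored 15. Locus 5, at 122729736 to 122729935, had a Pyicoclip peak of 19 and a PIPE-CLIP cluster of 54. Locus 6, at 122729955 to 122730053, had a PIPE-CLIP cluster of 22 and nothing else.

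**Figure D1:**
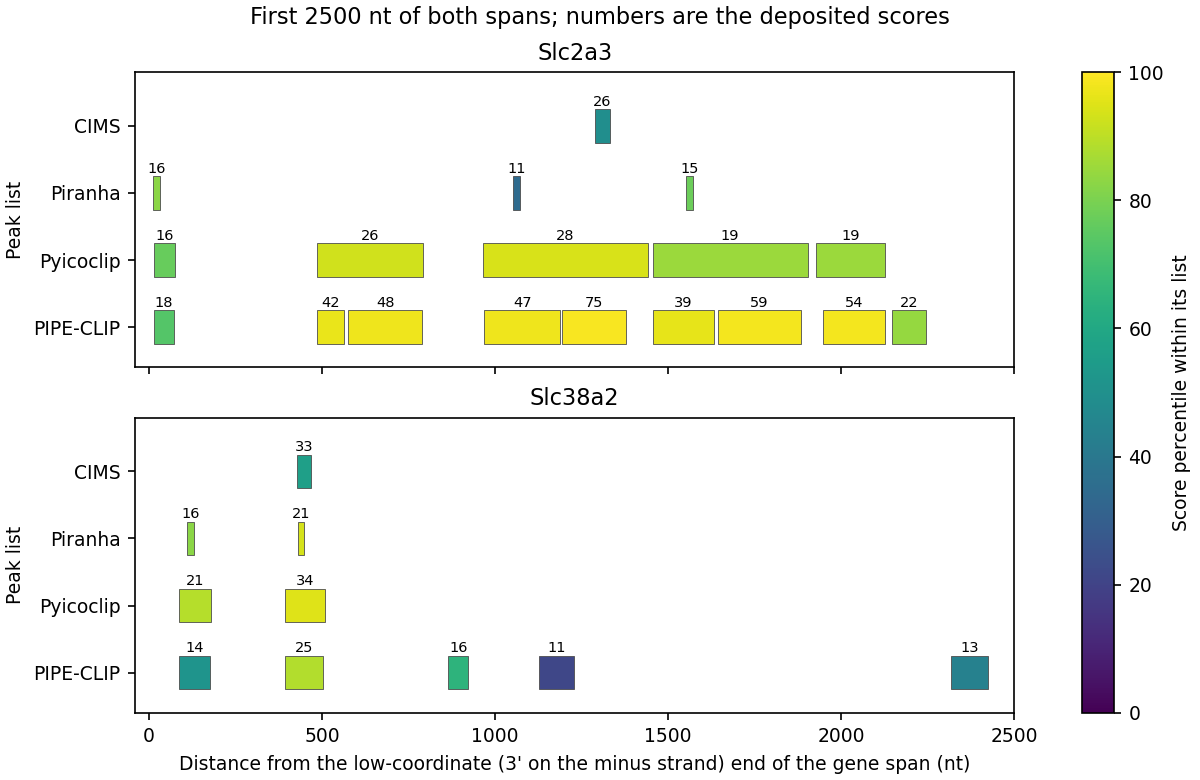
Peaks in the first 2500 nt from the 3′ end of Slc2a3 (top) and Slc38a2 (bottom), by list. Boxes span each peak, the number above each is its deposited score, and colour gives its score percentile within its list. Slc2a3 shows a chain of wide peaks between 484 and 2244 nt, and Slc38a2 shows 2 compact loci within 506 nt, followed by PIPE-CLIP clusters alone.

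Further into Slc2a3 the loci were sparse. Locus 7, at 122731381 to 122731567, held a Piranha peak of 10, the lowest score in that list, 2 nested Pyicoclip peaks of 18 and 13, and a PIPE-CLIP cluster of 45. The 5 loci beyond it lay 7663 to 14692 nt from the 3′ end, and their PIPE-CLIP scores ran from 13 to 26. Within 4 kb of the 3′ end the 10 PIPE-CLIP clusters had a median score of 46 and ran from 18 to 75. The ranges of the near and far clusters overlapped, with the near clusters of 18 and 22 below the highest of the far ones. Pyicoclip showed the same order, with a median of 19 for 7 near peaks and 13 for 3 far peaks. Its ranges overlapped too, at 13 to 28 near and 12 to 14 far. All 4 Piranha peaks and the CIMS peak were within 4 kb.

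No peak of any list lay in the remaining 59862 nt of the Slc2a3 span, beyond 122742501. The RefSeq entry joins 1 curated and 5 predicted transcripts, so the span may be longer than the transcript used in these cells. The pseudogene Gm4482, the only other annotated gene that overlaps the span, lies in that empty stretch and had no peak. Outside the span, the nearest peak below was a PIPE-CLIP cluster 241.3 kb away, and the nearest above was a plus-strand Pyicoclip peak 52.0 kb away. The pluripotency gene Nanog, the next gene below, and Foxj2, the next above, had none.

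**Figure D2:**
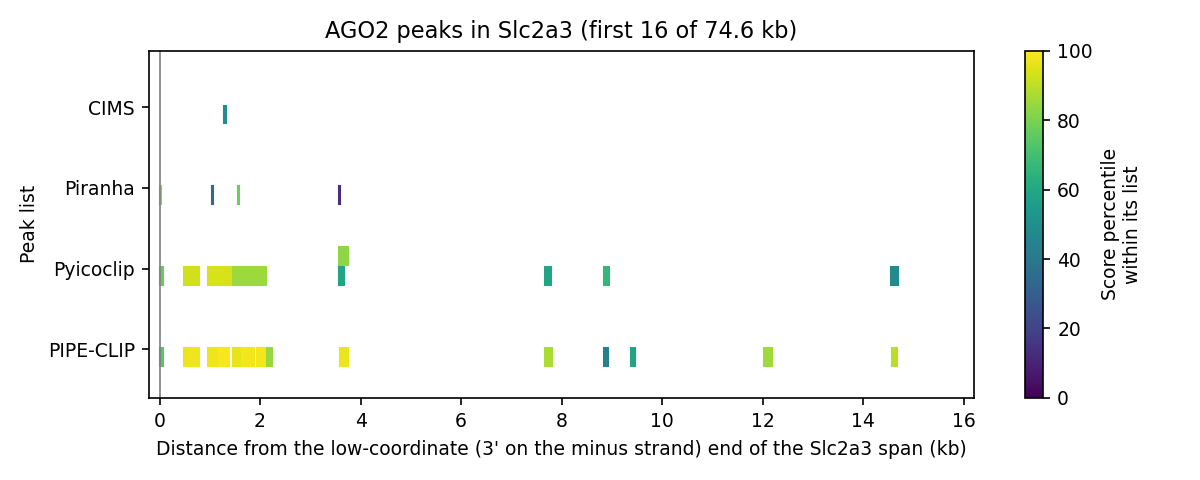
Peaks of the 4 lists along the first 16 kb of the Slc2a3 span, by distance from its 3′ end in kb, coloured by score percentile within the list. A nested Pyicoclip peak is drawn as a second row. Of the 15 PIPE-CLIP clusters, 10 lie within 4 kb, and the other 5 reach up to the 89.59 percentile. The last locus ends 14692 nt from the 3′ end.

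In Slc38a2 the callers met at 1 compact site. This locus ran from 96687786 to 96687898, 113 nt wide and 394 to 506 nt from the 3′ end. The Pyicoclip peak scored 34, the PIPE-CLIP cluster 25, the CIMS peak 33 and the Piranha peak 21, each the highest of the gene in its list. The Piranha peak of 20 nt lay wholly inside the 41-nt CIMS peak, which lay inside the PIPE-CLIP cluster, which lay inside the Pyicoclip peak. The 20 nt from 96687821 to 96687840 were therefore in all 4 lists. Across the series, 40 loci held all 4 lists, 53 to 1260 nt wide with a median of 209 nt, so the Slc38a2 site is narrower than most and the Slc2a3 site wider.

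A second Slc38a2 locus, 86 to 179 nt from the 3′ end at 96687478 to 96687571, held a Pyicoclip peak of 21, a Piranha peak of 16 and a PIPE-CLIP cluster of 14. The other 8 loci were PIPE-CLIP clusters alone, with scores of 11 to 24, and they reached 11324 nt from the 3′ end. That of 24, at 96691688 to 96691808, scored nearly as high as the cluster of the shared site and had no peak of another list. The last one, at 96698671 to 96698716, scored 12 and ended 1012 nt before the annotated start of the gene.

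**Figure D3:**
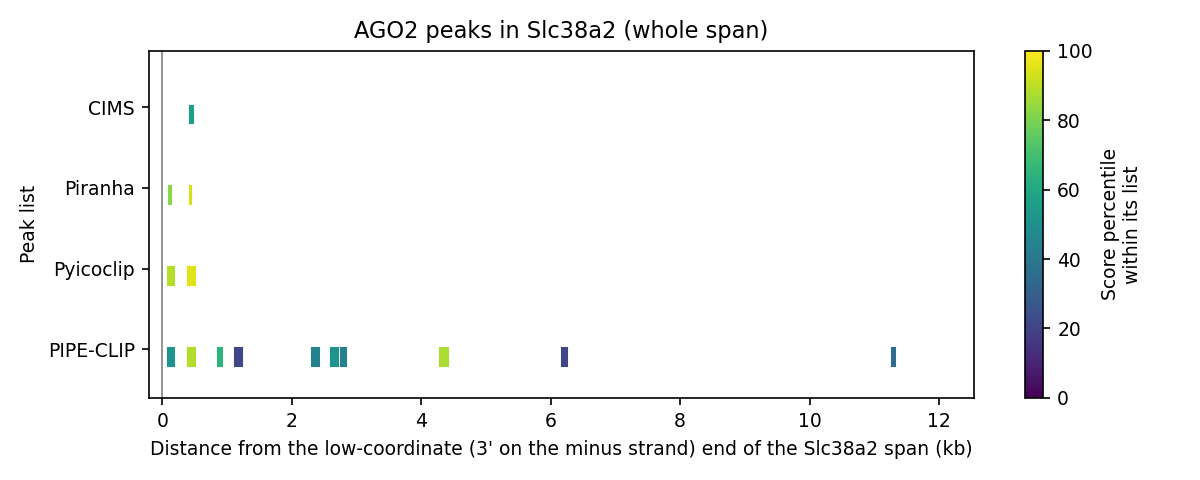
Peaks of the 4 lists along the whole Slc38a2 span, by distance from its 3′ end in kb, coloured by score percentile within the list. Peaks of CIMS, Piranha and Pyicoclip lie within 506 nt of the 3′ end, and the PIPE-CLIP clusters continue alone to 11324 nt.

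Outside Slc38a2 the nearest peak above was a plus-strand Piranha peak 20.0 kb away. The nearest below was a PIPE-CLIP cluster in Slc38a1, the gene of the related carrier SNAT1, which lies 43953 nt below Slc38a2. Slc38a1 had 3 PIPE-CLIP clusters, with a highest score of 16, and no peak of another list. The next protein-coding gene above, Slc38a4, had no peak.

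The transporters differed in how far PIPE-CLIP was matched by the other lists. In Slc2a3, 12 of 15 clusters overlapped a peak of another list on the same strand, a share of 80.0% (95% Wilson interval 54.8 to 93.0). In Slc38a2 it was 2 of 10, or 20.0% (5.67 to 51.0). Over all minus-strand clusters the share was 12.2% (11.1 to 13.5). Clusters of 1 gene are not independent, and both genes were chosen for a shared site, so these shares are given without a test. The 12 matched clusters of Slc2a3 scored 13 to 75 with a median of 43.5, and the 3 unmatched ones 15 to 23 with a median of 22. In Slc38a2 the 2 matched clusters scored 14 and 25, and the 8 unmatched ones 11 to 24 with a median of 13. The ranges overlapped in both genes. Over the minus strand of the whole list the medians were 23 and 13.

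Where PIPE-CLIP and Pyicoclip met, 1 edge was often nearly the same. The low-coordinate edge of the PIPE-CLIP cluster was within 2 nt of the edge of the Pyicoclip peak for 8 of 12 clusters in Slc2a3 and 2 of 2 in Slc38a2. The 4 exceptions in Slc2a3 were the second of a pair of clusters inside 1 Pyicoclip peak, in 3 cases, and a cluster that began 20 nt further in, in the other. The high-coordinate edge was within 4 nt for 4 of 12 clusters in Slc2a3 and 2 of 2 in Slc38a2, and it differed by up to 271 nt in Slc2a3, where a pair of clusters shared 1 Pyicoclip peak. All 10 Pyicoclip peaks of Slc2a3 and both of Slc38a2 overlapped a PIPE-CLIP cluster.

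Scores are the authors' own values, with no stated unit, and were compared only within a list, here as percentiles. In PIPE-CLIP the Slc2a3 clusters ranked high, with a median at the 96.1 percentile and a highest, of 75, at rank 35 of 3257. The Slc38a2 clusters had a median at the 47.8 percentile, near the middle of the list, and a highest at the 88.5 percentile. In Piranha the order was the other way round. The Slc38a2 peaks were at the 93.65 and 82.5 percentiles, and the Slc2a3 peaks ran from the 12.6 to the 82.5 percentile with a median of 56.1. In Pyicoclip the medians were 92.1 for Slc38a2, from 2 peaks, and 80.0 for Slc2a3, from 10 peaks between 47.7 and 93.8. The CIMS peaks of both genes were ordinary for their list, at the 56.2 percentile in Slc38a2 and the 49.1 in Slc2a3. Their names give the same second number m, 3, which is the lowest in the list and is shared by 87 of the 169 CIMS peaks.

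**Figure D4:**
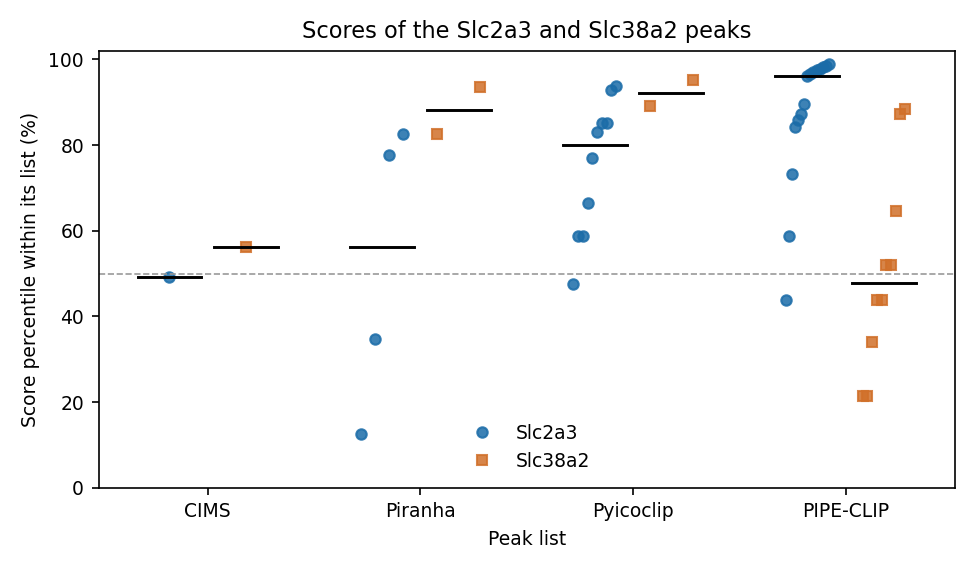
Score percentile within its list (%) of each Slc2a3 peak (circles) and Slc38a2 peak (squares), by list, with black lines at the medians and a dashed line at 50%. Slc2a3 is the higher of the pair in PIPE-CLIP, with medians of 96.1 and 47.8, and Slc38a2 in the other lists.

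Among the 22 other protein-coding genes with peaks in all 4 lists, likeness was taken as the sum over the lists of absolute differences in log2(peaks + 1). The nearest to Slc2a3 were Peg10 at 2.14, Zbtb7a at 2.22 and Ccng2 at 2.39. Peg10 had 3 CIMS, 8 Piranha, 8 Pyicoclip and 15 PIPE-CLIP peaks, so it had as many PIPE-CLIP clusters as Slc2a3 and more Piranha peaks. The nearest to Slc38a2 were Zbtb7a at 1.51, Ccng2 at 1.68 and Peak1 at 1.87. Zbtb7a had the same numbers of CIMS and Piranha peaks as Slc38a2, 1 and 2, but 6 Pyicoclip peaks to its 2.

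Other genes of nutrient uptake and use were looked up in 5 lists of 76 genes, chosen with earlier results of these data known. A peak in at least 1 list was found for 24 of them, 31.6%, against 9.77% of all protein-coding genes. Without Slc2a3 and Slc38a2 it was 22 genes. A peak in at least 2 lists was found for 10 of the 76, against 3.99% of all protein-coding genes. The 10 include Slc2a3 and Slc38a2 by choice, and Hk1 and Ddit3, which had no peak called on the strand of the gene. RNA levels were not measured, and a gene that is not transcribed cannot hold a peak, so the share is not comparable with that of genes at the same level. Of the 22 other genes, 12 had PIPE-CLIP clusters alone, and in all 12 these were on the minus strand, the strand that list favours. It was also the strand of the gene itself in all of the 12 but Slc38a1 and Slc7a5, whose strand was not available.

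Within the transporter families, 1 of the 11 glucose carrier genes other than Slc2a3 and 2 of the 10 SLC38 genes other than Slc38a2 had a peak. With so few genes these counts are not read against the 9.77% of all protein-coding genes. Of 12 glucose carrier genes, the other with a peak was Slc2a1, which encodes the widespread glucose transporter GLUT1, with 1 Pyicoclip peak of 10, the lowest score in the list. Of 11 SLC38 genes, the others were Slc38a1 and Slc38a7, with 3 and 2 PIPE-CLIP clusters. Of 17 genes of other amino acid and lactate carriers, 7 had a peak, and 5 of these had PIPE-CLIP clusters alone. The other 2 were Slc16a1 and Bsg. Slc16a1, the monocarboxylate transporter gene, had 1 Pyicoclip peak of 12 and 1 PIPE-CLIP cluster of 13 on its own strand. Bsg encodes basigin, the partner that brings that transporter to the membrane. It had 1 peak in each list, all on the plus strand between 79711488 and 79711586 on chromosome 10, with scores of 40 in CIMS, 13 in Piranha, 46 in Pyicoclip and 27 in PIPE-CLIP.

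Of 18 glycolysis genes, 6 had a peak and 3 had peaks in at least 2 lists. With few genes and RNA levels not measured, these counts are not read against the 9.77% and 3.99% of all protein-coding genes. Pkm, the pyruvate kinase gene, had 2 Pyicoclip peaks, with a highest score of 16, and 1 PIPE-CLIP cluster of 12. Eno3, an enolase gene best known from muscle, had 1 peak each in CIMS, Piranha and Pyicoclip, with scores of 10, 11 and 12. Hk1, a hexokinase gene on the minus strand, had a Piranha and a Pyicoclip peak of 12 each, but both were on the plus strand, opposite to the gene.

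Of 18 nutrient-sensing genes, 6 had a peak and 3 had peaks in at least 2 lists. Like those of glycolysis, these counts are not read against the 9.77% and 3.99% of all protein-coding genes. Ddit4, an inhibitor of the growth kinase complex mTORC1, had 7 PIPE-CLIP clusters, 2 Pyicoclip peaks and 1 Piranha peak. All 10 were on its own strand, and the highest PIPE-CLIP score was 58, between the values of Slc38a2 and Slc2a3. Mycn, a transcription factor gene, had 2 PIPE-CLIP clusters and 1 Pyicoclip peak. Ddit3, a transcription factor gene of the stress response, had 2 Pyicoclip peaks without strand and a PIPE-CLIP cluster on the strand opposite to the gene.

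**Figure D5:**
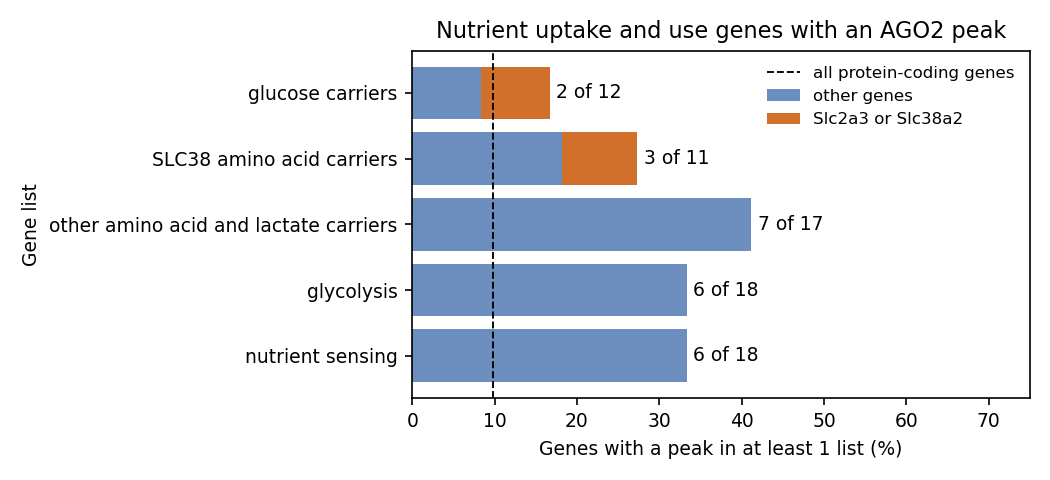
Percentage of each of 5 sets of genes that held any peak, with the part due to Slc2a3 or Slc38a2 in orange and the counts beside each bar. The dashed line is the 9.77% of all protein-coding genes with a peak. The transporter families have 2 of 12 and 3 of 11 genes with a peak.

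Markers of the cell line were checked in the same way. Of 10 markers of undifferentiated embryonal carcinoma, 3 had a peak, Lin28a, Lefty1 and Pou5f1, with 12, 7 and 1 peaks. Of 4 neuronal markers, 1 had a peak, a PIPE-CLIP cluster in Map2 that scored 10 and lay opposite to the strand of the gene. None of 4 muscle markers had one. The marker sets are small, so these counts are not read against the 9.77% of all protein-coding genes with a peak. A peak shows RNA recovered with AGO2, with no control antibody to set it against, and a gene without one can still be expressed.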

How the data were processed

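RNA pulled down with AGO2 from P19 cells was sequenced from 3 libraries. The authors deposited 4 peak lists in BED form, 1 per caller, whose score is the authors' own value for each peak, a whole number from 10 upward with no stated unit. The reads went through cutadapt and Novoalign on the build mm10, per the submitters' processing notes. Versions, caller settings and how libraries were pooled are not given in the sources. Depth is unknown. The labels mention no molecular identifiers. Intervals are for counts of peaks or clusters and cover counting error alone, since no library is separated.

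Peaks were assigned by midpoint to gene spans of RefSeq GRCm38.p6, whose coordinates are those of mm10, and positions count from 1. The strand of Slc38a2 came from a RefSeq table of gene starts, as did that of 19 of the 22 other listed genes with a peak. Slc38a1, Slc7a5 and Bsg, and the marker Lefty1, had no strand there. The strand of Slc2a3 is background knowledge. Exons and untranslated regions were not used. Loci were merged at an overlap of at least 1 nt. A score percentile is the share of the list with a lower score plus 50% of its ties. No test was made, because the genes were chosen from these peaks and no library is separated.

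The genes, gene lists and alternatives were chosen with earlier results of these data known. Genes named were the transporters, their neighbours, list members in at least 2 peak lists and the 3 genes most alike for each transporter. Other list members, the cell markers with a peak and the microRNAs shown were named after their values were seen. A planned search for seed matches under the peaks was not run, for want of sequence used here. The merging and assignment steps were tested on simulated data. Python 3.11.15, numpy 2.4.6, pandas 2.3.3, scipy 1.17.1 and matplotlib 3.10.9 were used.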

Additional observations from a re-analysis of the deposited data

How the results depend on the processing

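Of 47 alternative values, 43 stayed close to the reported ones, with counts within 1.5 times and other values within their interval or the SD over peaks. Some of these could not move. The strand shares and the counts on the gene strand drew on peaks that were all on the minus strand. Leaving out CIMS could take away only 1 peak of each gene. The 4 that moved were these. Without PIPE-CLIP, the peaks fell to 15 in Slc2a3 and 5 in Slc38a2, and the listed genes with a peak from 24 to 12, by construction. With the upper part of each list by score, 0 loci of all 4 lists were left in Slc2a3, since its CIMS peak scored 26 against a list median of 27 and its Piranha peak 11 against 12, while Slc38a2 kept 1. The SD over peaks is wide. Within it, the median distance from the 3′ end of Slc38a2 went from 893 nt to 438.5 nt without PIPE-CLIP. It went to 448 nt with the upper part by score, and up to 1177 nt without Pyicoclip. The median distance of Slc2a3 stayed between 1662.5 and 1895 nt. All stranded peaks were on the minus strand in each alternative tried, which was fixed in advance, since each drew on peaks already on that strand. No library could be left out. No paired analysis was possible because the lists separate no library and there is 1 group.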

Other observations

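PIPE-CLIP clusters carry running numbers, which followed genome position on 22 of 22 chromosomes. Between the first and last Slc2a3 cluster there are 29 numbers, of which 15 are in the list and 14 are not. Between the first and last Slc38a2 cluster there are 33 numbers, of which 10 are in the list and 23 are not. The lowest score in the list is 10, and the scores of the other numbers were not analysed here.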
